A study of Mus musculus with 12 samples.

Results

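The Smad family of the mouse, Smad1 to Smad7 and Smad9, was followed across 4 groups of gastrocnemius, a calf muscle, on one-colour Agilent expression arrays. Probes were assigned to the family by the gene name or accession in the array annotation, which gave 8 of the 27597 genes or gene names on the array. Of these 8 genes, 7 passed the filter on dim probes and were tested. The groups were KO denervated, KO control, WT denervated and WT control muscle, with 3 arrays each, where KO stands for the Smad4 knockout and WT for its wild-type counterpart. All mice are labelled as adult male CD1 animals. Denervated muscle was taken 14 days after denervation and control muscle kept its nerve. The labels name no other allele and no drug. They do not give the part of Smad4 that was removed, the cells in which it was removed or a Cre driver. The study's text states that the 3 experiments of a condition used different animals, so the p-values rest on the spread between animals. In whole muscle, fewer cells of a type and less RNA per cell cannot be told apart, and this holds for every value below.

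Smad proteins carry the signals of the TGF-beta superfamily from the cell surface to the nucleus. The receptor-regulated Smads are phosphorylated by type I receptors: Smad1, Smad5 and Smad9 mainly downstream of BMP receptors, Smad2 and Smad3 downstream of TGF-beta, activin and myostatin receptors. Phosphorylated receptor-regulated Smads join the common Smad, Smad4, and bind DNA with it. Smad6 and Smad7 are the inhibitory Smads, which block the receptors or compete with Smad4 and are themselves target genes of the pathway. In skeletal muscle the Smad2 and Smad3 branch, which myostatin drives, is known to limit fibre size, whereas the BMP branch is known to maintain muscle mass after denervation.

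The array carried 15 Smad probes, of which 13 were kept and 12 were well above background on all 12 arrays. Where a gene had several kept probes, the brightest stood for it in the test. Positions are those of the array annotation on mouse build mm8. The tested Smad1 probe, A_51_P409260, lies on the minus strand at chr8:82235591-82235647. The tested Smad5 probe, A_51_P107599, lies on the plus strand at chr13:56751818-56751877. The Smad3 probe A_52_P352277 (chr9:63445330-63445389) and the only Smad6 probe, A_51_P427926 (chr9:63751577-63751636), lie on the minus strand of the same chromosome. Smad2, Smad4 and Smad7 are measured here by A_52_P397280, A_52_P611867 and A_51_P403636. No annotation of build mm8 was used, so exons and untranslated regions under the probes are not given.

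Promoter windows of Smad6 and Smad1 are printed because these genes stand for the members that moved in opposite directions after denervation. Each window has 300 bases around an annotated transcript start (RefSeq, build GRCm38.p6, minus strand), chr9:64022010-64022309 for Smad6 and chr8:79399379-79399678 for Smad1. Capitals mark a match to GTCTAGAC, the palindromic Smad element.
Smad6: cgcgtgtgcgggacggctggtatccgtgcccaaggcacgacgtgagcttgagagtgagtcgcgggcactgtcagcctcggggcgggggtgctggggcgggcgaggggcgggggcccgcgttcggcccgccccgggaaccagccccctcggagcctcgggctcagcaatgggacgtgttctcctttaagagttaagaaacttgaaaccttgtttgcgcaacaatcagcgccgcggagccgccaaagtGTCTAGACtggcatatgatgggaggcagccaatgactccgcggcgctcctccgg
Smad1: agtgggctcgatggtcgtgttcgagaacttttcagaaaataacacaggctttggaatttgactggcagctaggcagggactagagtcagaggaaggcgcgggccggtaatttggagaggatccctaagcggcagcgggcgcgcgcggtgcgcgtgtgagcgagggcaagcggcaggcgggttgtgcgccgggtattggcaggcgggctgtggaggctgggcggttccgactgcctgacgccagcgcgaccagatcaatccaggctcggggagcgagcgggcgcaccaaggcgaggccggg

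A search of both strands used this palindrome, the Smad element CAGAC and the GC-rich element GGCGCC. The Smad element and the palindrome end in the same letters. The Smad6 window held 1 GTCTAGAC and neither of the other motifs, and the Smad1 window held none of the 3. Of 32851 promoter windows of the same length, 70 held GTCTAGAC (0.213%), 16292 held CAGAC (49.6%) and 3898 held GGCGCC (11.9%). GGCGCC occurred once each in the Smad9 window and in 2 of 3 Smad5 windows, CAGAC occurred in the third Smad5 window, and the Smad3 window held none. Smad2, Smad4 and Smad7 have no entry in that table. A match of letters describes the window and does not show a site in use.

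Signal is given throughout as log2 of the processed intensity minus the 75th percentile of its array, so a difference of 1 on this scale is a doubling. That percentile lay between 219 and 364 intensity units, and between 49.9% and 56.4% of 41174 probes per array were well above background. The 12 arrays were spread over 4 slides and 2 scan days, with at most 3 of the groups on a slide. With 3 arrays a group, the precision of each value is limited. Of 8 muscle fibre markers, 7 were well above background on all 12 arrays. With denervation, 8 of 10 endothelial markers fell in KO muscle and 7 of 10 in WT muscle, where 23.2% of all tested genes fell in KO and 20.6% in WT. Schwann cell markers fell for 5 of 7 genes in KO and 4 of 7 in WT, smooth muscle and pericyte markers for 2 of 6 and 3 of 6, muscle fibre markers for 5 of 8 and 1 of 8, and fibroblast markers for 0 of 5 and 1 of 5. Macrophage markers rose for 3 of 6 genes in KO and 1 of 6 in WT, where 23.7% and 18.7% of all genes rose, and none of 3 adipocyte markers was called. Of 4 satellite cell markers 1 was called higher in each genotype, Myf5, named after its values were seen, which was well above background on no array outside the KO denervated group. Between KO and WT muscle limma called 0 of 49 markers in either condition, with an unadjusted p under 0.05 for 8 in denervated and 3 in control muscle.

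The common Smad comes first, since it is the targeted gene. Smad4, on chromosome 18 like Smad2 and Smad7, stayed measurable in KO muscle at well under the WT signal, and it was also lower after denervation in both genotypes. In denervated muscle the brighter Smad4 probe read 1.77, 2.05 and 1.89 in KO and 3.18, 3.49 and 3.28 in WT (replicates 1, 2 and 3). In control muscle it read 2.42, 2.38 and 2.19 in KO and 3.74, 3.59 and 4.02 in WT. All KO values lay below all WT values, and within each genotype all denervated values lay below all control values. The order of the group means was KO denervated (1.90 ± 0.14, SD, n = 3), KO control (2.33 ± 0.12), WT denervated (3.32 ± 0.16) and WT control (3.79 ± 0.22), and no neighbours in that order overlapped.

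Genotype set the larger difference. In denervated muscle Smad4 differed by -1.42 (SE 0.15) between KO and WT, which puts KO at 37.5% of WT (95% confidence interval 29.6% to 47.5%, limma adjusted p = 0.00159). In control muscle the difference was -1.46 (SE 0.15), or 36.4% of WT (28.8% to 46.1%, adjusted p = 0.0185). Smad4 was the only gene of 15226 called there, 0.00657% of all, and 617 had an unadjusted p under 0.05. The second Smad4 probe, A_51_P444740, gave -1.56 in denervated and -1.41 in control muscle. Because the deleted part of the gene is not known, neither probe can be said to lie in it, and the remaining signal cannot be assigned to particular cells. Within slides that held both genotypes, the difference was -1.41 and -1.34 in denervated and -1.21 and -1.83 in control muscle.

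The call in control muscle rested on many arrays. A slide term in the fit ended it (adjusted p = 0.142), as did normexp background correction (adjusted p = 1.00), a fit on control arrays alone (adjusted p = 0.196), testing without the filter on dim probes (adjusted p = 0.0795) and leaving out any single one of WT control replicates 1 and 3, WT denervated replicate 3, KO control replicates 1, 2 and 3 and KO denervated replicate 3 (adjusted p between 0.0504 and 0.142), while the value stayed between -1.55 and -1.34 under all 21 alternatives.

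After denervation Smad4 differed by -0.43 (SE 0.15, adjusted p = 0.0415) in KO muscle and by -0.47 (SE 0.15, adjusted p = 0.0329) in WT muscle. The interaction, which tests whether the change differed between genotypes, was 0.04 (95% confidence interval -0.44 to 0.52, adjusted p = 0.970). Its interval leaves room for a difference about as large as either change. The second probe gave -0.56 in KO (adjusted p = 0.0184) and -0.42 in WT (adjusted p = 0.0715). Same-numbered WT arrays shared deviations weakly, and with the replicate number as a block the WT call was lost (adjusted p = 0.0687). The WT call ended too when replicate 1 or 3 of either WT group was left out (adjusted p between 0.0637 and 0.123). Normexp correction, median scaling, no filter on dim probes and a fit on WT arrays alone each ended it as well (adjusted p between 0.0665 and 0.173). The KO call ended when any 1 of 6 arrays was left out, namely KO denervated replicates 1 and 3, KO control replicates 1 and 2, WT control replicate 1 and WT denervated replicate 3 (adjusted p between 0.0521 and 0.122). Normexp correction, a slide term, the replicate block, no filter on dim probes and KO arrays alone each ended it too (adjusted p between 0.0618 and 0.267).

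**Figure D1:**
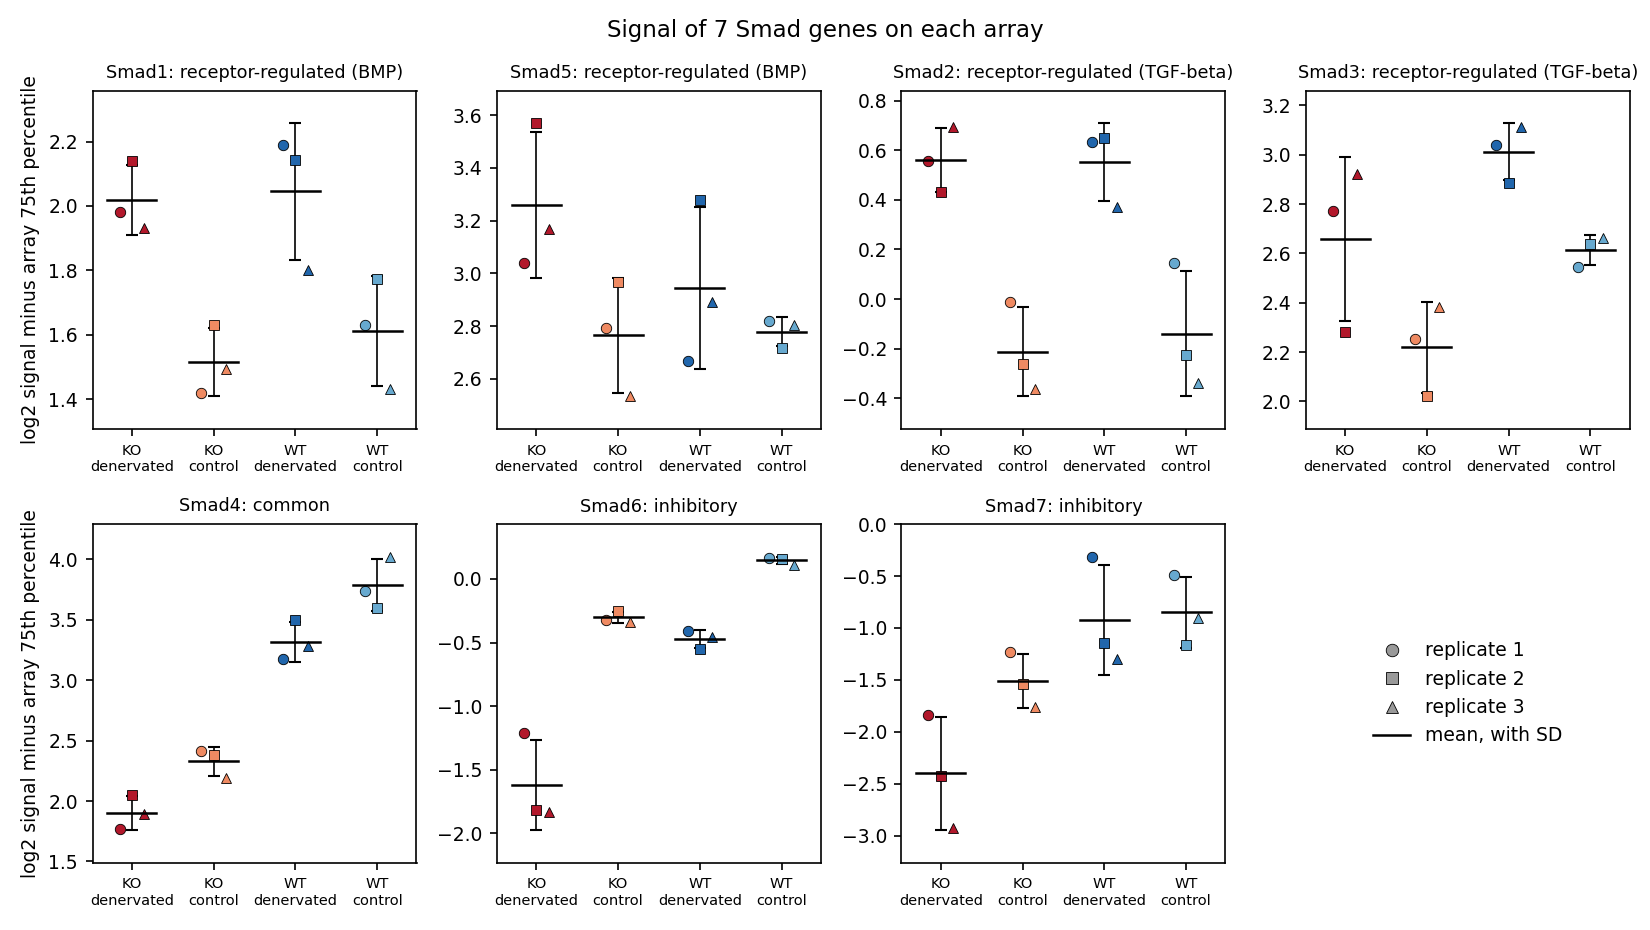
Signal of the 7 tested Smad genes on each of the 12 arrays (vertical axes, log2 signal minus the 75th percentile of the array, scaled per gene; horizontal axis, the 4 groups; symbols, replicates; line and bar, mean and SD, n = 3). Smad2 is high in denervated muscle of both genotypes, Smad4 is low in KO muscle of both conditions, and Smad6 and Smad7 are lowest in KO denervated muscle, with means of -1.62 and -2.40.

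Among the receptor-regulated Smads, denervation raised Smad1 and Smad2 in both genotypes, and none of the 4 tested genes was lower. Over the family, 5 of 7 tested genes passed the test in KO muscle, 2 higher and 3 lower, where 46.9% of all genes did, 23.7% higher and 23.2% lower. In WT muscle 4 of 7 passed, 2 higher and 2 lower, where 39.3% of all genes did, 18.7% higher and 20.6% lower. Read against those shares, the counts show nothing particular to the family. By role, the 4 tested receptor-regulated Smads had median differences of 0.50 in KO and 0.42 in WT, and 2 of them were called in each. The 2 inhibitory Smads had medians of -1.10 and -0.34, and both were called in KO. In WT the inhibitory median rested on Smad6 (-0.62), since Smad7 gave -0.07 (adjusted p = 0.880). Smad5 also differed little in WT (0.17, adjusted p = 0.527). Over all genes the medians were 0.00 in KO and -0.02 in WT.

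Smad2, the receptor-regulated Smad of the TGF-beta and activin branch that differed most, read 0.56, 0.43 and 0.69 in KO denervated muscle and -0.01, -0.26 and -0.36 in KO control muscle. In WT it read 0.63, 0.65 and 0.37 in denervated muscle and 0.15, -0.22 and -0.34 in control muscle. Every denervated array lay above every control array, and KO and WT arrays overlapped in both conditions. Denervation raised Smad2 by 0.77 (SE 0.17, adjusted p = 0.00294) in KO and by 0.69 (SE 0.17, adjusted p = 0.00706) in WT, that is 1.71-fold and 1.62-fold. Normexp correction ended both calls (adjusted p = 0.0675 in KO and 0.122 in WT), and a slide term ended the WT call (adjusted p = 0.0537).

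Smad1, which transmits BMP signals, showed the same pattern at a smaller size. It read 1.98, 2.14 and 1.93 in KO denervated muscle and 1.42, 1.63 and 1.49 in KO control muscle. In WT the values were 2.19, 2.14 and 1.80 after denervation and 1.63, 1.77 and 1.43 in control muscle. Denervated arrays lay above control arrays in both genotypes, in WT by a gap of only 1.80 against 1.77. The difference was 0.50 (SE 0.15, adjusted p = 0.0177) in KO and 0.43 (SE 0.15, adjusted p = 0.0401) in WT. A second Smad1 probe, A_52_P65108, gave 0.27 in KO (adjusted p = 0.222) and 0.64 in WT (adjusted p = 0.0138), so the probes ordered the genotypes differently. The KO call was lost without KO control replicate 1 or KO denervated replicate 2 (adjusted p = 0.0565 and 0.0572) and with normexp correction (adjusted p = 0.416). The WT call was lost with a slide term (adjusted p = 0.0772) or when any 1 of 6 arrays was left out. These were WT denervated replicates 1 and 2, WT control replicates 1 and 3 and replicate 3 of either KO group (adjusted p between 0.0524 and 0.137). Normexp correction, median scaling, no filter on dim probes and WT arrays alone each ended the WT call too (adjusted p between 0.0606 and 0.679).

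Smad3, the partner of Smad2 in the myostatin branch, missed the threshold with its brightest probe. That probe read 2.77, 2.28 and 2.92 in KO denervated and 2.26, 2.02 and 2.38 in KO control muscle, against 3.04, 2.88 and 3.11 in WT denervated and 2.54, 2.64 and 2.66 in WT control muscle. The WT arrays of the 2 conditions did not overlap, whereas KO denervated replicate 2 fell among the KO control arrays. The differences were 0.44 in KO (adjusted p = 0.0580) and 0.40 in WT (adjusted p = 0.0935). The other Smad3 probes pointed the same way: A_51_P376454 gave 0.47 in KO (adjusted p = 0.0455) and 0.69 in WT (adjusted p = 0.00934), and A_51_P441022 gave 0.36 (adjusted p = 0.160) and 0.56 (adjusted p = 0.0444). With the mean of all its kept probes in place of the brightest, Smad3 passed in KO (adjusted p = 0.0251) and in WT (adjusted p = 0.00862).

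Smad5, the close relative of Smad1, had no call. The tested probe read 3.04, 3.57 and 3.17 in KO denervated and 2.79, 2.97 and 2.53 in KO control muscle, against 2.67, 3.28 and 2.89 in WT denervated and 2.82, 2.72 and 2.80 in WT control muscle. KO arrays of the 2 conditions did not overlap and WT arrays did. The difference was 0.49 in KO (SE 0.19, adjusted p = 0.0558) and 0.17 in WT (adjusted p = 0.527). Probe A_51_P452207 gave 0.00 in KO and 0.07 in WT, and the kept probe A_52_P567359 was well above background on 0 of 3 KO control arrays and 1 of 3 WT control arrays, so no difference is given for it. The KO difference of the tested probe passed under quantile normalization (adjusted p = 0.00784) and in a fit that included slide (adjusted p = 0.0391).

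Smad9, the third BMP-branch Smad, was not tested. Its probe A_52_P575919 was well above background on 0 of 12 arrays, with intensities between 2.59 and 14.4. Its other probe, A_51_P459288, was well above background on 1 array, KO control replicate 1. That probe read -6.77, -6.87 and -6.78 in KO denervated and -3.07, -3.80 and -4.48 in KO control muscle, against -6.62, -6.52 and -6.97 in WT denervated and -5.95, -6.40 and -5.74 in WT control muscle. The KO control arrays stood above all others, but 2 of these 3 were themselves not well above background, so no fold is given.

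No receptor-regulated Smad was called between genotypes in limma. By the tested probes only Smad3 had an unadjusted p under 0.05, in control muscle and averaged over conditions (unadjusted p = 0.0112). In denervated muscle KO minus WT was -0.03 for Smad1 (95% confidence interval -0.36 to 0.30), 0.01 for Smad2 (-0.36 to 0.37), 0.31 for Smad5 (-0.11 to 0.74) and -0.35 for Smad3 (-0.74 to 0.03, adjusted p = 0.349). In control muscle it was -0.10 for Smad1 (-0.43 to 0.23), -0.07 for Smad2 (-0.44 to 0.29), -0.01 for Smad5 (-0.44 to 0.41) and -0.40 for Smad3 (-0.78 to -0.01, adjusted p = 1.00). For Smad1 and Smad2 these intervals leave room for modest differences in either direction. Other probes did not pass in denervated muscle either. Smad1 probe A_52_P65108 gave -0.43 (adjusted p = 0.253, unadjusted p = 0.0303). Smad3 probe A_51_P376454 gave -0.46 (adjusted p = 0.222, unadjusted p = 0.0216). For both of these probes all KO denervated arrays lay below all WT denervated arrays. Probes A_51_P441022 of Smad3 and A_51_P452207 of Smad5 gave -0.24 and 0.11, with overlapping arrays. Smad3 had the largest of the control muscle differences in size, with all KO control arrays below all WT control arrays and an averaged difference of -0.37 (-0.65 to -0.10) that did not pass after adjustment over all genes (adjusted p = 0.246).

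**Figure D2:**
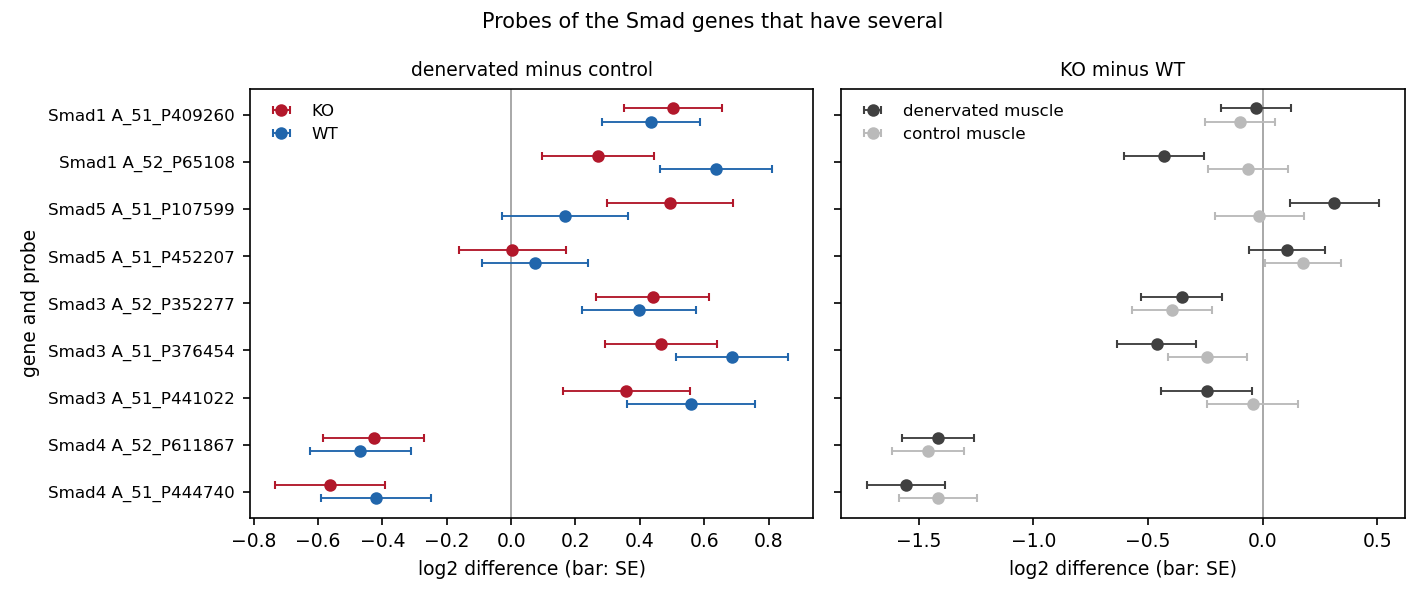
Differences for each probe well above background on all 12 arrays, for the Smad genes that have several (points, log2 difference; bars, SE; n = 3 arrays per group). On the left, denervated minus control in KO and WT muscle; on the right, KO minus WT in denervated and control muscle. Both Smad4 probes lie near -1.5 for KO minus WT, the 3 Smad3 probes agree in sign, and the 2 Smad5 probes gave 0.49 and 0.00 for denervation in KO.

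The inhibitory Smads were lowest in denervated KO muscle. Smad6, which mainly restrains BMP receptors, read -1.21, -1.82 and -1.83 in KO denervated muscle and -0.41, -0.55 and -0.45 in WT denervated muscle. In control muscle it read -0.32, -0.25 and -0.33 in KO and 0.17, 0.16 and 0.11 in WT. No group overlapped another: KO denervated lay lowest (-1.62 ± 0.35, SD, n = 3), then WT denervated (-0.47 ± 0.07), KO control (-0.30 ± 0.04) and WT control (0.15 ± 0.03). The middle groups were separated by a gap smaller than the spread within KO denervated muscle.

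Denervation lowered Smad6 by 1.32 (SE 0.16, adjusted p = 8.44e-05) in KO muscle and by 0.62 (SE 0.16, adjusted p = 0.0119) in WT muscle, which left 40.1% and 65.2% of the control signal. In denervated muscle KO minus WT was -1.15 (SE 0.16, adjusted p = 0.00475), so KO held 45.1% of the WT signal (95% confidence interval 35.1% to 57.9%). In control muscle it was -0.45, or 73.3% of WT, with an adjusted p of 1.00, although all KO arrays lay below all WT arrays. Averaged over conditions the difference passed (-0.80, SE 0.12, adjusted p = 0.0124). The interaction of -0.70 (95% confidence interval -1.21 to -0.19) did not pass over all genes (adjusted p = 0.357, unadjusted p = 0.0114), so a stronger fall in KO than in WT muscle was not established.

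All 4 Smad6 differences kept their sign within slides. Denervated minus control was -1.49 and -1.50 on the slides that held both KO conditions and -0.58 on the slide that held both WT conditions. KO minus WT was -0.80 and -1.32 in denervated and -0.41 and -0.45 in control muscle. None of the Smad6 calls was lost by leaving out an array. With normexp correction all of them were lost (adjusted p between 0.0703 and 1.00), and the denervated KO minus WT difference shrank to -0.59. That difference was not called either in a fit on denervated arrays alone (adjusted p = 0.0655).

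Smad6 is also known as a gene of vascular endothelium. The summed signal of 10 endothelial markers, in units of the array's 75th percentile, ranged from 18.2 to 23.5 in KO denervated and 38.0 to 39.7 in KO control muscle, against 15.4 to 23.6 in WT denervated and 35.1 to 42.8 in WT control muscle. The sums were lower in denervated muscle of both genotypes and overlapped between KO and WT in each condition, with medians of the marker differences of 0.09 in denervated and -0.04 in control muscle. For smooth muscle and pericyte markers the sums were 86.7 to 120 in KO denervated and 160 to 189 in WT denervated muscle. These ranges did not overlap, although the median of the 6 marker differences had the other sign (0.39) and none was called. The sums were mostly Acta2, named after its values were seen, with log2 means of 6.56 in KO denervated and 7.32 in WT denervated muscle. No other marker of that list had a mean above 2.35 in either of these groups. On all 12 arrays, 9 of the 10 endothelial and all 6 smooth muscle and pericyte markers were well above background. The part of these cells in the Smad6 and Smad7 values was not tested.

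Smad7, which restrains both branches and recruits ubiquitin ligases to the receptors, varied more between replicates. It read -1.84, -2.43 and -2.93 in KO denervated muscle and -0.31, -1.14 and -1.30 in WT denervated muscle, against -1.23, -1.54 and -1.76 in KO control and -0.49, -1.16 and -0.90 in WT control muscle. KO arrays lay below WT arrays in each condition, and the KO conditions did not overlap. WT denervated and WT control arrays overlapped, and so did KO control and WT denervated arrays. The group means were -2.40 ± 0.55 in KO denervated, -1.51 ± 0.26 in KO control, -0.92 ± 0.53 in WT denervated and -0.85 ± 0.34 in WT control muscle (SD, n = 3).

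Denervation lowered Smad7 in KO muscle by 0.89 (SE 0.32, adjusted p = 0.0399), whereas the WT difference was -0.07 (95% confidence interval -0.77 to 0.63, adjusted p = 0.880). In denervated muscle KO minus WT was -1.48 (SE 0.32, adjusted p = 0.0381), so KO held 35.8% of the WT signal (22.0% to 58.3%). In control muscle it was -0.66 (-1.36 to 0.04, adjusted p = 1.00), and averaged over conditions -1.07 (SE 0.23, adjusted p = 0.0576). The interaction was -0.82 (-1.81 to 0.18, adjusted p = 0.608), so the difference between the KO and WT responses was not established.

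The Smad7 calls were fragile. For KO minus WT in denervated muscle the call ended when any 1 of 7 arrays was left out, namely WT denervated replicates 1 and 2, WT control replicate 3 and replicates 2 and 3 of both KO groups (adjusted p between 0.0515 and 0.122), in a fit on denervated arrays alone (adjusted p = 0.126) and with normexp correction, where the value was -0.79 (adjusted p = 0.391). For denervation in KO it ended when any 1 of 5 arrays was left out, namely WT control replicate 3, KO control replicates 1 and 2 and KO denervated replicates 2 and 3 (adjusted p between 0.0513 and 0.149) and with normexp correction, where the value was -0.26 (adjusted p = 0.516). Testing without the filter on dim probes ended both calls too (adjusted p = 0.0881 for KO minus WT in denervated muscle and 0.0557 for denervation in KO). Within slides the sign held: -1.17 and -1.20 for denervation in KO, and -1.53 and -1.21 for KO minus WT in denervated muscle.

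Counted over the family, 3 of 7 tested Smad genes were lower in KO than in WT denervated muscle and none was higher, where 2.19% of all genes were called (1.23% lower and 0.959% higher). The 3 were Smad4 and both inhibitory Smads, and the Smad7 call was lost under 10 of 21 alternatives. Averaged over conditions 2 of 7 were called, Smad4 and Smad6, where 0.913% of all genes were (0.486% higher and 0.427% lower). Smad4 is the targeted gene, so its call in either count is not evidence about the family. The members were also chosen with earlier results of these data known, so neither count is a test of the family. For the interaction 0 of 7 were called in limma, where 0.184% of all genes were (0.0985% higher and 0.0854% lower), and 1 of these 7, Smad6, had an unadjusted p under 0.05. The KO comparison shares the KO denervated arrays with the denervation comparison in KO, so the calls of Smad6 and Smad7 in these comparisons are not separate evidence.

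**Figure D3:**
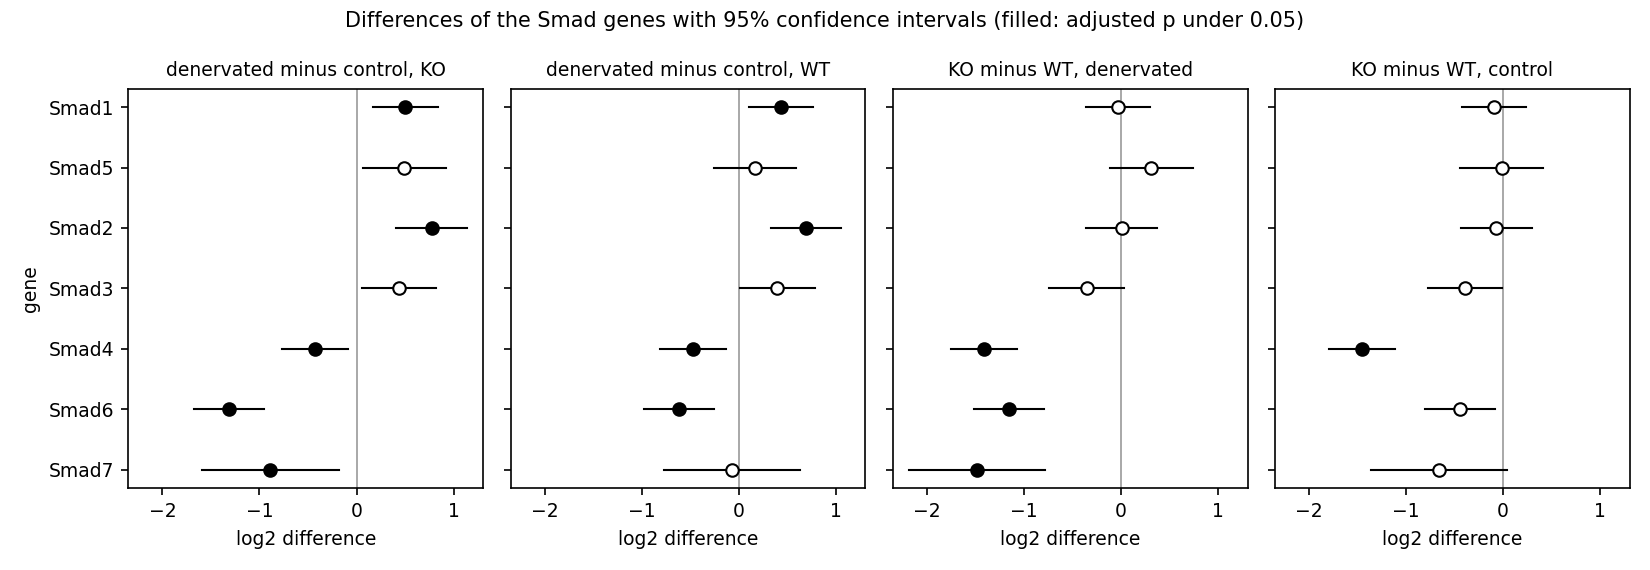
Log2 differences of the 7 tested Smad genes with 95% confidence intervals (filled points, adjusted p under 0.05), for denervated minus control in KO and in WT and for KO minus WT in denervated and in control muscle. Receptor-regulated Smads lie at or above 0 for denervation, and Smad6 and Smad7 lie at -1.15 and -1.48 for KO minus WT in denervated muscle.

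Set against the receptor-regulated Smads of the same array, the inhibitory Smads were lowest in KO denervated muscle. For each array the mean log2 signal of Smad1, Smad2, Smad3 and Smad5 was subtracted from that of Smad6 and Smad7, and the WT control mean was set to 0. This contrast was -1.55, -2.16 and -2.49 in KO denervated muscle and -0.32, -0.42 and -0.49 in KO control muscle. In WT it was -0.43, -1.02 and -0.85 in denervated muscle and 0.12, -0.16 and 0.04 in control muscle. The group means were -2.07 ± 0.48, -0.41 ± 0.08, -0.77 ± 0.31 and 0.00 ± 0.14 (SD, n = 3), in the order KO denervated, KO control, WT denervated and WT control. KO denervated arrays stood below all others, whereas KO control and WT denervated arrays overlapped. With denervation in WT, the median difference was -0.34 for the inhibitory and 0.42 for the receptor-regulated Smads. The lower contrast of WT denervated muscle thus drew on both classes, and Smad7 itself differed by only -0.07 there. As a difference within an array, the contrast is unchanged by a constant added to all log2 values of that array. Steps that act by intensity, such as normexp correction and quantile normalization, can change it. With normexp correction the denervation difference in KO went from -1.32 to -0.63 for Smad6 and from -0.89 to -0.26 for Smad7. The contrast is given for the main processing only, and as a score over chosen genes it was given no test.

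**Figure D4:**
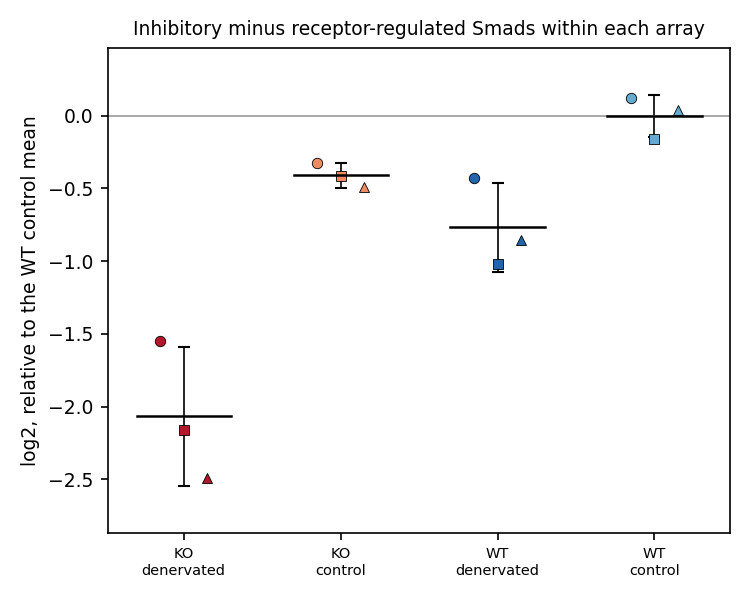
Mean log2 signal of Smad6 and Smad7 minus that of Smad1, Smad2, Smad3 and Smad5 on each array, relative to the WT control mean (symbols, replicates; line and bar, mean and SD, n = 3). KO denervated arrays lie between -2.49 and -1.55, below every other array.

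The genes most like each called Smad gene were different for the receptor-regulated Smads, while Smad7 shared a neighbour with Smad6 and another with Smad4. Likeness was the root mean square difference between profiles over the 12 arrays, each centred on its own mean, among 11236 genes well above background on all arrays. For Smad1 the closest were Card6 (0.0892), Pip4k2c (0.0980) and Rnaset2a (0.104), where Smad1 itself varied by 0.269 about its mean. For Smad2 they were Sesn2 (0.113), Phf1 (0.115) and Dcaf13 (0.116), against a variation of 0.397. The nearest to Smad6 were 2310081J21Rik (0.203), Plekha6 (0.229) and Inpp5a (0.230), against 0.668. The nearest to Smad7 were 2310081J21Rik (0.336), Igsf1 (0.337) and Esrrg (0.371), against 0.717, and to Smad4 Esrrg (0.389), Irgm2 (0.437) and Fmod (0.469), against 0.764. Set against that variation, the nearest genes lay closest for Smad1, Smad2 and Smad6. The gene 2310081J21Rik was first for both inhibitory Smads, with means of -1.72 in KO denervated, -0.43 in KO control, -0.65 in WT denervated and -0.27 in WT control muscle. These likenesses describe 12 arrays that share 4 group means.

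Upstream of the Smads, 3 of 7 type I receptors were called for denervation in each genotype, and 2 of 5 type II receptors in KO and 3 of 5 in WT. With 46.9% of all genes called in KO and 39.3% in WT, these counts show nothing particular to the receptors. Between genotypes none was called in limma, with an unadjusted p under 0.05 for 1 of each type in denervated muscle and none in control muscle. Of 7 type I receptors, 1 rose and 2 fell in each genotype: Tgfbr1, the TGF-beta type I receptor, by 1.48 in KO and 1.40 in WT, Acvrl1, an endothelial receptor for BMP ligands, by -1.35 and -1.37, and Acvr1b, an activin receptor, by -0.83 and -0.76. Of 5 type II receptors, 1 rose and 1 fell in KO and 1 rose and 2 fell in WT. Acvr2b, the receptor that binds myostatin and activin, fell by 3.24 in KO and by 2.38 in WT, while Tgfbr2 rose by 0.69 in KO and by 0.46 in WT. The WT call of Tgfbr2 was lost with the replicate number as a block (adjusted p = 0.0594), with a slide term (adjusted p = 0.0990), without the filter on dim probes (adjusted p = 0.0577) and when WT denervated replicate 1 or 2 or any WT control array was left out (adjusted p between 0.0580 and 0.0726). With normexp correction the calls of Acvrl1 and Tgfbr2 were lost in both genotypes (adjusted p between 0.0534 and 0.763).

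Regulators that act on Smad proteins were called in both directions with denervation, as were 23.7% (higher) and 23.2% (lower) of all genes in KO and 18.7% and 20.6% in WT, and nothing particular to these lists is read from their counts. Between genotypes limma called none of the 4 lists' members, and an unadjusted p under 0.05 was seen for 3 partner factors in denervated muscle and 1 anchor or phosphatase in control muscle. Of 13 Smad ubiquitin ligases and deubiquitinases, 2 rose and 5 fell in KO, and 3 rose and 3 fell in WT. Usp11, a deubiquitinase, rose by 1.67 in KO and by 1.56 in WT. Smurf2, a ligase that Smad7 brings to the receptors, fell by 0.91 in KO and gave -0.45 in WT (adjusted p = 0.0687). Nedd4l, a ligase that targets Smad2 and Smad3, fell by 1.12 in KO and by 1.16 in WT. Stub1, also a ligase, fell by 0.55 in KO and by 0.45 in WT. Normexp correction ended the calls of Smurf2 in KO (adjusted p = 0.0674), of Nedd4l in KO and WT (adjusted p = 0.313 and 0.368) and of Stub1 in KO and WT (adjusted p = 0.157 and 0.138). The KO call of Stub1 was also lost under quantile normalization (adjusted p = 0.0546). Its WT call was also lost with the replicate number as a block (adjusted p = 0.0571), with a slide term (adjusted p = 0.151) and without WT denervated replicate 2 or 3 or WT control replicate 2 (adjusted p between 0.0501 and 0.0617). Of 11 Smad anchors and phosphatases, 3 rose and 3 fell in KO, and 3 rose and 4 fell in WT. Ctdsp1 and Ppm1a, phosphatases of receptor-regulated Smads, fell by 0.92 and 1.02 in KO and by 0.53 and 1.03 in WT. Zfyve16 and Hgs, endosomal proteins, rose by 1.01 each in KO and by 0.79 and 1.14 in WT. Normexp correction ended the WT calls of Ctdsp1 (adjusted p = 0.0631) and Zfyve16 (adjusted p = 0.0782). Of 8 corepressors, 5 rose and 1 fell in KO, and 4 rose and 2 fell in WT. Tgif1 was higher by 2.30 in KO and 2.62 in WT, Zeb2 by 1.38 and 1.26, and Skil, the SnoN gene, by 1.15 and 1.31. Ski, the close relative of Skil, fell by 0.68 in KO and by 0.43 in WT. The WT call of Ski was lost with the replicate number as a block (adjusted p = 0.0639), with the mean of its probes, normexp correction, a slide term, no filter on dim probes or WT arrays alone (adjusted p between 0.0734 and 0.151), and without WT denervated replicate 1 or any WT control array (adjusted p between 0.0599 and 0.131). Of 13 partner factors and coactivators, 3 rose and 3 fell in KO, and 3 rose and 1 fell in WT, led by the AP-1 genes Jun (1.75 in KO, 2.38 in WT) and Junb (2.11 and 2.08).

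Of the target genes of the BMP branch, Id2, Atoh8 and Id3 were lower in KO than in WT denervated muscle. Of 10 listed genes 8 were tested, and 3 were lower and 0 higher between genotypes after denervation, where 1.23% of all genes were lower and 0.959% higher. The list was chosen with earlier results of these data known, so this count is no test of the list. The 5 others did not pass and lay on both sides of 0, with a median over the 8 of -0.69, where the median over all genes was -0.01. In control muscle 0 of 8 were called in limma and none had an unadjusted p under 0.05. Id2, a helix-loop-helix inhibitor, read 1.59, 1.01 and 0.43 in KO denervated and 2.99, 3.70 and 3.03 in WT denervated muscle, against -0.17, -1.18 and -0.89 in KO control and -0.31, -0.30 and -0.56 in WT control muscle. Denervated KO arrays thus lay between the WT denervated and the control arrays. KO minus WT in denervated muscle was -2.23 for Id2 (SE 0.32, adjusted p = 0.00524), while its other probe gave -1.71 (adjusted p = 0.0640).

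Atoh8, a transcription factor gene, read -1.46, -2.90 and -1.69 in KO denervated and 0.17, 0.21 and 0.71 in WT denervated muscle, against -2.00, -1.84 and -1.95 in KO control and -2.07, -1.31 and -1.86 in WT control muscle. Only WT denervated arrays stood apart, and KO minus WT was -2.38 (SE 0.33, adjusted p = 0.00436). Id3, a relative of Id2, read 0.69, 0.46 and 0.64 in KO denervated and 1.80, 1.49 and 1.92 in WT denervated muscle, with a difference of -1.14 (SE 0.19, adjusted p = 0.0101). Id1 gave -1.26 and did not pass (adjusted p = 0.139). With denervation 2 of the 8 rose and 2 fell in KO, where 23.7% and 23.2% of all genes did, and 3 rose and 2 fell in WT, where 18.7% and 20.6% did. Hey1, a repressor gene, fell by 1.03 in KO and by 1.08 in WT, and the homeobox gene Msx1 fell by 0.79 in KO and by 0.62 in WT. The Msx1 calls were lost with normexp correction in both genotypes (adjusted p = 0.564 and 0.795), and in WT also with a slide term (adjusted p = 0.197), without the filter on dim probes (adjusted p = 0.0826), in a fit on WT arrays alone (adjusted p = 0.0527) and when WT denervated replicate 1 or 2, WT control replicate 2 or 3 or KO control replicate 1 was left out (adjusted p between 0.0508 and 0.149). Id4, a further Id gene, rose by 0.94 in KO, a call lost with normexp correction (adjusted p = 0.0723), and gave 0.67 in WT (adjusted p = 0.0524). Id2 rose by 1.76 in KO and by 3.63 in WT, and Atoh8 rose by 2.11 in WT while its KO difference was -0.09 (adjusted p = 0.847). The interaction passed for none of the 8 genes, of which 4 had an unadjusted p under 0.05 (-2.20 for Atoh8, adjusted p = 0.128; -1.88 for Id2, adjusted p = 0.166). The genotype calls of Atoh8, Id2 and Id3 after denervation were lost under normexp correction (adjusted p between 0.0604 and 0.393) and under no other alternative.

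**Figure D5:**
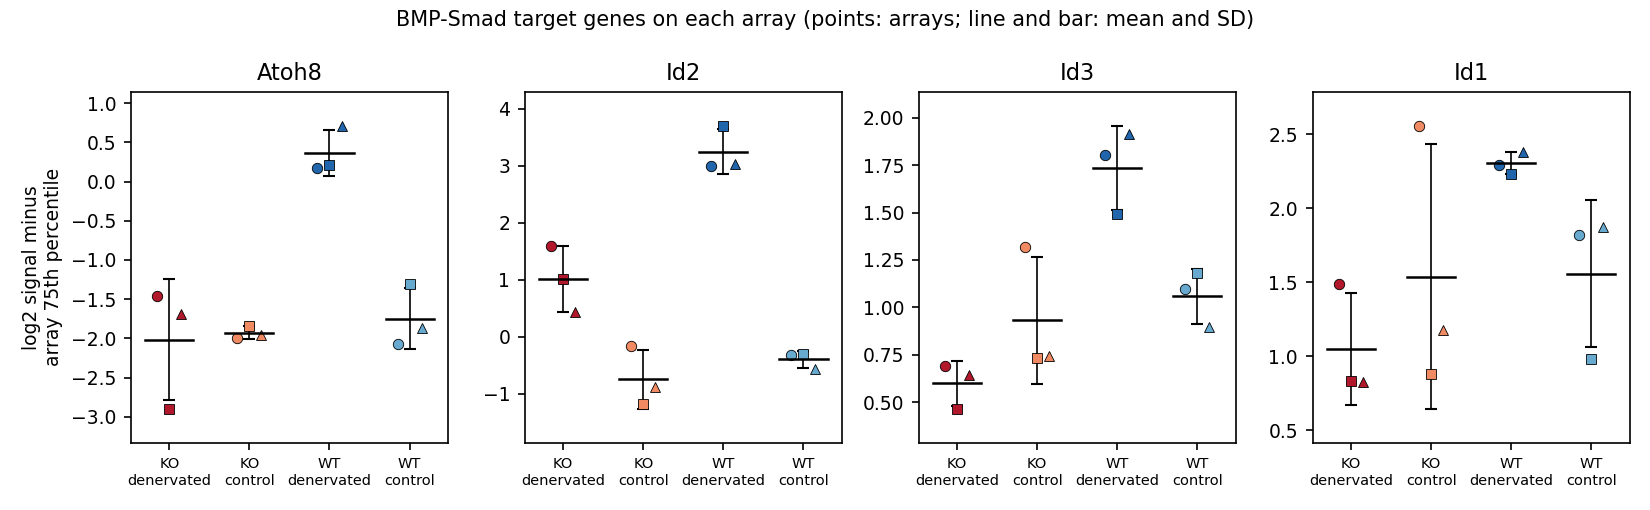
Signal of 4 BMP-branch target genes on each array (vertical axes, log2 signal minus the 75th percentile of the array, scaled per gene; horizontal axis, the 4 groups; line and bar, mean and SD, n = 3). Atoh8, Id2 and Id3 are lower on every KO denervated array than on any WT denervated array, with differences of -2.38, -2.23 and -1.14.

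No target gene of the TGF-beta branch was called between genotypes. Of 10 tested genes 0 were called in limma between genotypes in denervated or in control muscle, with an unadjusted p under 0.05 for 3 and 1. The median difference was -0.09 in denervated and -0.01 in control muscle. Ltbp2, a matrix protein gene, came nearest, at 1.52 in denervated muscle (adjusted p = 0.0674). With denervation 3 of 10 rose and 2 of 10 fell in each genotype, near the shares over all genes, among them the cell-cycle inhibitor Cdkn1a, higher by 4.79 in KO and 5.04 in WT, and the protease inhibitor Timp1, higher by 2.75 and 3.92. Whether the BMP and TGF-beta lists differ from each other was not tested.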

How the data were processed

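Total RNA of whole gastrocnemius was labelled with Cy3, per the labels' protocols, and 12 one-colour arrays of 3 per group were analysed. The scanner files as deposited give the processed intensity of each spot, which per the file headers had its background subtracted and was detrended within the array, with nothing done to make arrays comparable. Feature Extraction is named as 10.7.3.1 in the file headers and as 10.5.1.1 in the submitters' processing notes. The deposited series matrix holds intensity on a linear scale, with column medians between 23.9 and 24.2, so it appears normalized between arrays. The method behind it is not given in the sources used here, and it served as an alternative.

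Control spots and outlier spots were left out of 43379 spots, spots of a probe were averaged, and log2 of the processed signal minus the array's 75th percentile was taken. Probes were named through RefSeq, 24375 by accession, 6301 by symbol and 2426 by synonym, and 8072 kept the file's name. The filter on dim probes required a signal well above background on every array of some group. Of 22524 kept probes, the brightest of each gene was used, which gave 15226 genes, 226 of them with a missing value. All tests were two-sided and used lmFit and eBayes of limma 3.58.1 under R 4.3.3 (4 group means, 8 residual and 3.16 prior degrees of freedom), with p-values adjusted by Benjamini-Hochberg over all genes within a comparison. A call is an adjusted p under 0.05. Single probes were tested in the same way over all kept probes. The fit was tested on simulated independent arrays with known shifts in the KO denervated group only. Those had no slide or pairing effect, so that test does not bear on the calls made here. With 3 arrays a group, exact permutation cannot reach that threshold and was not used. Tables and figures were made in Python 3.11.15 (pandas 2.3.3, matplotlib 3.10.9).

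Replicate numbers come from the sample titles. Deviations from the group means of same-numbered WT arrays correlated weakly over 15000 genes (r = 0.305, 0.107 and 0.232, against at most 0.0161 for different numbers). The labels state no pairing, and replicate 1 of both WT groups was on slide 1, so a pairing of WT arrays is possible but not established. The main fit had no pairing term. In KO the values were 0.0899, 0.0153 and 0.175 for replicates 1, 2 and 3, against at most -0.0122, 0.108 and 0.0690 for different numbers. KO replicates 1 and 3 thus correlated best with their own number and replicate 2 did not. Replicate 3 of both KO groups was on slide 3. A pairing of KO arrays is not established, and there the numbers were not taken as pairs. The alternatives were normexp background correction, quantile or array-median scaling, no filter on dim probes, the mean of a gene's probes, the series matrix, slide or replicate number as a block, only the groups compared, and leaving out each array.

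The members and the gene lists were chosen with earlier results of these data known. The text names every Smad gene in every comparison, up to 4 members of a list with the smallest adjusted p in the comparison described (for denervation, in KO), and the 3 genes most like each called Smad gene. Values in other comparisons are given for genes so named. The lists were type I receptors, type II receptors, ubiquitin ligases and deubiquitinases, anchors and phosphatases, corepressors, partner factors, BMP-branch targets, TGF-beta-branch targets, and markers of muscle fibre, endothelium, Schwann cell, fibroblast, smooth muscle and pericyte, macrophage, satellite cell and adipocyte.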

Additional observations from a re-analysis of the deposited data

How the results depend on the processing

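The 42 Smad differences, 15 of them called, were recomputed under the alternatives to give 868 values. No called difference changed sign. Among called differences 242 values stayed past the threshold and 71 did not, and among uncalled ones 15 of 555 passed and 43 changed sign. Averaged over conditions, the lower Smad4 signal of KO muscle passed under all 20 alternatives, with adjusted p up to 0.0444. Normexp correction moved most counts: it left 0 Smad genes called of 5 for denervation in KO, 0 of 4 in WT, 0 of 3 for KO against WT in denervated muscle, 0 of 1 in control muscle and 1 of 2 averaged, and over all genes 2719, 1909, 25, 0 and 6 in that order, with 0 for the interaction. The cause was not tested. Without the filter on dim probes, 3, 2, 2, 0 and 2 Smad genes were called in that order, and 203 genes in denervated, 0 in control, 62 averaged and 5 for the interaction. That setting also shifted the median over all genes to -0.33 for denervation in KO and -0.19 in WT. With slide as a block, 2 Smad genes were called for denervation in WT and 0 for KO against WT in control muscle, and over all genes 0 in control muscle and 4 for the interaction. In fits on only the groups compared, 2 Smad genes were called for denervation in WT, 0 in control and 1 in denervated muscle, and over all genes 0 and 126. Median scaling left 2 Smad genes for denervation in WT. The count of genes called in control muscle was 5 under median scaling, quantile normalization and the series matrix, and 4 with the mean of probes. With the replicate block, 5 Smad genes were called for denervation in KO, 3 in WT, 3 for KO against WT in denervated and 1 in control muscle. Over all genes that fit gave 3 in control muscle and 9 for the interaction. In KO, where the numbers were not taken as pairs, the denervation calls of Smad4 (adjusted p = 0.0795) and Smurf1 (adjusted p = 0.0550) were lost under it. Smad3 was gained there (adjusted p = 0.0393). In WT the denervation calls of Smad4, Tgfbr2, Ski and Stub1 were lost, and no other call of a Smad or pathway gene was. Leaving out 1 array gave 2 to 6 Smad genes for denervation in KO, 2 to 5 in WT, 2 to 3 for KO against WT in denervated muscle, 0 to 1 in control muscle, 2 to 3 averaged and 0 for the interaction. Over all genes it gave 6101 to 7221, 4812 to 6124, 152 to 324, 0 to 2, 80 to 129 and 5 to 51 in that order. Pathway genes were rerun under the same alternatives, a step added after the data were seen, and no called pathway gene changed sign. Averaged over conditions, Id2 and Atoh8 were lower in KO (-1.29 and -1.28), calls that 9 and 11 of 20 alternatives lost. Both Smad9 probes were near background, which limits what can be said of that gene.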
